A study of Mus musculus with 37 samples.

Results

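To examine the part of the circadian clock that drives transcription and the nuclear receptors that feed back on it, the mRNA of 6 genes was followed in bone marrow-derived macrophages (BMDMs). These were the clock activators *Arntl* (encoding Bmal1), *Clock* and *Npas2*, the RevErb receptor genes *Nr1d1* (RevErb-α) and *Nr1d2* (RevErb-β), and *Rora* (RORα). They were chosen by gene symbol, and all 6 have a row among the 24016 genes of the FPKM table. The BMDMs came from male C57BL/6J wild-type (WT) mice or from *Arntl*-/- mice on a C57BL/6 background, 6 to 9 weeks old, and were grown from bone marrow for 6 days with M-CSF. TLR4 was stimulated with Kdo2-lipid A (KLA), the lipid anchor of endotoxin with its Kdo sugars, for 0, 6, 24 or 48 h, and polyA RNA was sequenced in 1 library for each of the 8 conditions. The deletion is not described as limited to macrophages. WT mice are described both as littermates and as animals from a supplier. The number of mice behind a library, the hour of harvest, the dose of KLA used for these libraries and the segment of *Arntl* that was removed are not given in the sources used here.

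In the clock, Bmal1 pairs with Clock, or with its paralogue Npas2, and the pair binds E-box sequences and activates the genes of its own inhibitors, Per and Cry, as well as *Nr1d1*, *Nr1d2* and *Rora*. ROR elements, found at *Arntl*, *Clock* and *Npas2* among other genes, are bound by both kinds of receptor, with RORα raising transcription from them and the RevErbs lowering it. The RevErbs lack the helix that recruits coactivators and repress through the NCoR and HDAC3 corepressor complex. In macrophages they are known to lower the activity of enhancers of inflammatory genes.

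The recognition sequences were looked for within 2000 bases on either side of the first base of each counted transcript in mm9, on both strands, and positions are counted from that base. The E-box CACGTG reads the same on both strands and was counted once. It occurred 4 times near the start of *Nr1d1*, 3 times near *Nr1d2*, 1 time near *Npas2*, and not within the windows of *Arntl*, *Clock* or *Rora*. Of 23954 such windows over all genes, 43.0% held at least 1 E-box, 3.52% held at least 3 and 0.843% held at least 4. The stretches below are shown because they hold the E-boxes of the RevErb genes, whose mRNA was lower in every *Arntl*-/- library. They are read 5′ to 3′ on the strand of the gene, with E-boxes in capitals. In the first *Nr1d1* stretch, which is upstream of the gene (chr11:98636985-98637026, minus strand), the second run of capitals is the related E'-box CACGTT. The next 2 stretches lie in an intron of *Nr1d1* (chr11:98635456-98635485 and chr11:98635161-98635205, minus strand). The last lies in an intron of *Nr1d2* (chr14:19071027-19071204, minus strand) and holds its 3 E-boxes within 178 bases.
Nr1d1 upstream: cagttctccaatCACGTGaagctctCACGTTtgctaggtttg
Nr1d1 intron, single E-box: cagagccgggccCACGTGctgcatttgttt
Nr1d1 intron, paired E-boxes: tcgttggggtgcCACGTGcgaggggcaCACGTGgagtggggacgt
Nr1d2 intron: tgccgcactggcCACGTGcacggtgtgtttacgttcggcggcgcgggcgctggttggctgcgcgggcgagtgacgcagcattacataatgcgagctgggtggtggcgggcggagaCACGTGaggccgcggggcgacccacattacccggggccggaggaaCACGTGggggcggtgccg

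The core of the ROR element, TAGGTCA, was found 2 times near the start of *Arntl* and 1 time near *Npas2*, and 30.7% of all windows held at least 1 and 5.45% at least 2. Of the *Arntl* matches, 1 begins 1699 bases upstream (chr7:120349269-120349297, plus strand) and 1 begins 76 bases into the transcript, in its 5′ UTR (chr7:120351044-120351072, plus strand). The *Npas2* match begins 1433 bases upstream (chr1:39249673-39249701, plus strand). These are shown, with the core in capitals, because RORα and the RevErbs bind this element. A match of letters is a description and does not show that a protein binds there.
Arntl upstream: gtccatttaatTAGGTCAgcatccagccc
Arntl 5′ UTR: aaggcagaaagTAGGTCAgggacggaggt
Npas2 upstream: ggaaaaatatgTAGGTCAgtggaacattt

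The variant core TGGGTCA, which differs from TAGGTCA by 1 letter, occurred 1 time near *Arntl* and *Nr1d1* and 2 times near *Clock*, *Npas2* and *Nr1d2*, and 42.8% of all windows held it. In the RefSeq table of 300-base promoters (assembly GRCm38.p6), which has 9 promoters for the 6 genes, no CACGTG was found, compared with 7.15% of all 32851 promoters. There, CACGTT was found in a promoter of *Nr1d1* (4.68% of all promoters) and TAGGTCA in a promoter of *Arntl* (2.61% of all promoters).

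The libraries held 8587560 to 27036784 reads on genes, and WT macrophages at 6 h were the deepest. Values below are scaled FPKM, that is reads per kb of exon per 10000000 reads, divided by a size factor for each library. Levels of different genes can be compared roughly, because the values are per length. For *Arntl* in *Arntl*-/- libraries the full exon length was used, although the removed segment is not known. Its level there may therefore not be on the scale of the other genes. Since each condition was sequenced in 1 library, differences have no replicate check and no p-value is given. The intervals cover the counting of reads only, and paired or PCR-copied reads are not independent molecules. Differences were set against 1.5-fold and against the genes analysed, which are those whose scaled FPKM multiplied by length in kb reached at least 74.5 in WT macrophages. They include 5 of the 6 genes. *Npas2*, at 1.64, was too low to be among them. The summed level of 8 macrophage markers was 15775 to 38659 in WT and 17738 to 34673 in *Arntl*-/- libraries. The sum of 6 neutrophil markers was 509 to 928 in WT and 834 to 1014 in *Arntl*-/- libraries and higher in the latter at each time, with *Mpo* and *Elane* at or under 3 reads in every library. Its part in the results below was not tested. Of 5 T cell markers, 4 were at or under 3 reads in every library.

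*Arntl*, the deleted gene (NM_007489, chromosome 7, 120350979 to 120457640), was read in every library. At 0, 6, 24 and 48 h its level was 34.3, 32.3, 35.6 and 38.7 in WT macrophages, from 210, 455, 172 and 149 reads. The *Arntl*-/- libraries had levels of 13.9, 11.3, 18.8 and 20.2, from 125, 83, 136 and 75 reads. All 4 *Arntl*-/- libraries thus lay below all 4 WT libraries, which checks the labels, but reads remained in each of them. Reads were counted over all exons of the transcript, so the count does not show which exons they came from. The log2 ratio of *Arntl*-/- to WT was -1.30, -1.503, -0.92 and -0.93 at the 4 times, with a mean of -1.16 (95% counting interval ± 0.17). As these are bulk libraries, fewer cells of a type and less RNA per cell cannot be told apart here or below.

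*Clock*, whose protein is the usual partner of Bmal1, showed no separation of the genotypes. Its level (NM_001289826, chromosome 5, 76638893 to 76733817) was 50.3, 49.3, 58.9 and 51.7 in WT macrophages. The *Arntl*-/- libraries stood at 55.4, 50.4, 57.2 and 42.0. The libraries overlapped, and the log2 ratios were 0.14, 0.031, -0.043 and -0.30, with a mean of -0.043 (± 0.063). The ratio at 6 h was -0.10 in the values as deposited. At 48 h the *Arntl*-/- library was 1.23-fold below the WT library (95% counting interval 1.10 to 1.38). With upper-quartile scaling the log2 ratio was 0.25 at 0 h and -0.21 at 48 h.

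*Npas2*, the paralogue that can take the place of Clock, was close to the limit of detection in WT macrophages. Its reads (NM_008719, chromosome 1, 39251117 to 39420085) numbered 0, 8, 0 and 0 in WT macrophages at 0, 6, 24 and 48 h. With *Arntl* deleted they numbered 26, 23, 6 and 11, which gave levels of 2.003, 2.18, 0.576 and 2.06. Every *Arntl*-/- library was above every WT library, whose highest level was 0.394, as was the case for 0.993% of the 16320 genes with more than 3 reads in at least 1 library, the set that holds *Npas2*. With a floor of 3 reads in place of the WT value of 0, *Npas2* was 5.88-fold higher in *Arntl*-/- macrophages at 0 h and 3.81-fold higher at 48 h. The 95% counting intervals, taken on the reads themselves, had lower ends of 4.45 and 2.61. At 6 h, where WT macrophages had reads, the ratio was 5.53-fold (95% counting interval 2.39 to 14.3). At 24 h the counting interval of the ratio reached down to 0.787-fold, so that a difference was not detectable at this depth. Even in *Arntl*-/- macrophages the *Npas2* level was below that of each of the other 5 genes in every library.

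*Nr1d1*, which encodes RevErb-α, was lower in *Arntl*-/- macrophages at every time. Its level (NM_145434, chromosome 11, 98629246 to 98636691) was 44.5, 33.9, 26.2 and 37.0 in WT macrophages, from 260, 456, 121 and 136 reads. The *Arntl*-/- values were 19.6, 12.6, 10.0 and 16.7, from 169, 88, 69 and 59 reads. The highest *Arntl*-/- library was below the lowest WT library. WT macrophages had 2.27, 2.70, 2.62 and 2.22 times the level of *Arntl*-/- macrophages, and the log2 ratio of *Arntl*-/- to WT averaged -1.28 (± 0.19). The 4 ratios, from -1.42 to -1.15, lay within each other's counting intervals. *Thra*, the thyroid hormone receptor gene on the opposite strand, has GENCODE exons that overlap 263 of the 2721 exon bases of *Nr1d1* (9.67%, chr11:98629471-98629733). Reads were counted without regard to strand, so reads in that overlap cannot be assigned to either gene. The *Thra* transcript that was counted ends at base 98626425, before *Nr1d1* begins, so its level is not that of the overlapping exons. That level was 84.4, 77.0, 83.3 and 92.9 in WT macrophages and 66.5, 53.2, 70.2 and 110.4 in *Arntl*-/- macrophages, with no separation of the genotypes.

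*Nr1d2*, which encodes RevErb-β, differed far more. Its level (NM_011584, chromosome 14, 19036570 to 19071620) was 70.6, 60.2, 95.4 and 90.2 in WT macrophages, from 693, 1361, 740 and 557 reads. With *Arntl* deleted the level was 6.15, 3.23, 2.76 and 3.70, from 89, 38, 32 and 22 reads. The gap between the lowest WT library and the highest *Arntl*-/- library was wider than the range within either genotype in fold terms. The level in *Arntl*-/- macrophages was 11.5-fold lower at 0 h (95% counting interval 9.19 to 14.5), 18.6-fold lower at 6 h (13.5 to 26.4), 34.6-fold lower at 24 h (24.3 to 50.9) and 24.4-fold lower at 48 h (15.9 to 39.2). The mean log2 ratio was -4.33 (± 0.24), the lowest of the genes analysed, among which *Nr1d1* was the 4th and *Arntl* the 9th from the lowest. Among the 16320 genes with more than 3 reads in at least 1 library, *Nr1d2* was the 7th, *Nr1d1* the 460th and *Arntl* the 582nd from the lowest. The gap was therefore already present before KLA was added, and the interval at 24 h did not overlap that at 0 h.

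*Rora*, which encodes the activator that competes with the RevErbs, did not separate the genotypes. Its level was 18.7, 13.4, 29.8 and 32.3 in WT macrophages and 18.7, 21.1, 24.5 and 32.1 in *Arntl*-/- macrophages. The counted transcript (NM_001289916, chromosome 9, 69137648 to 69236053) is a short one that starts 636055 bases downstream of the gene's first base in GENCODE. At 0 and 48 h the log2 ratios were 0.0036 and -0.0082. At 6 h *Arntl*-/- macrophages were 1.58-fold higher (95% counting interval 1.41 to 1.76), a log2 ratio of 0.65, and at 24 h the ratio was -0.28. The value at 6 h was 0.52 as deposited and 0.58 with upper-quartile scaling, both short of 1.5-fold, and it rests on the deepest library. The mean log2 ratio was 0.092 (± 0.086), and without 6 h it was -0.095.

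**Figure D1:**
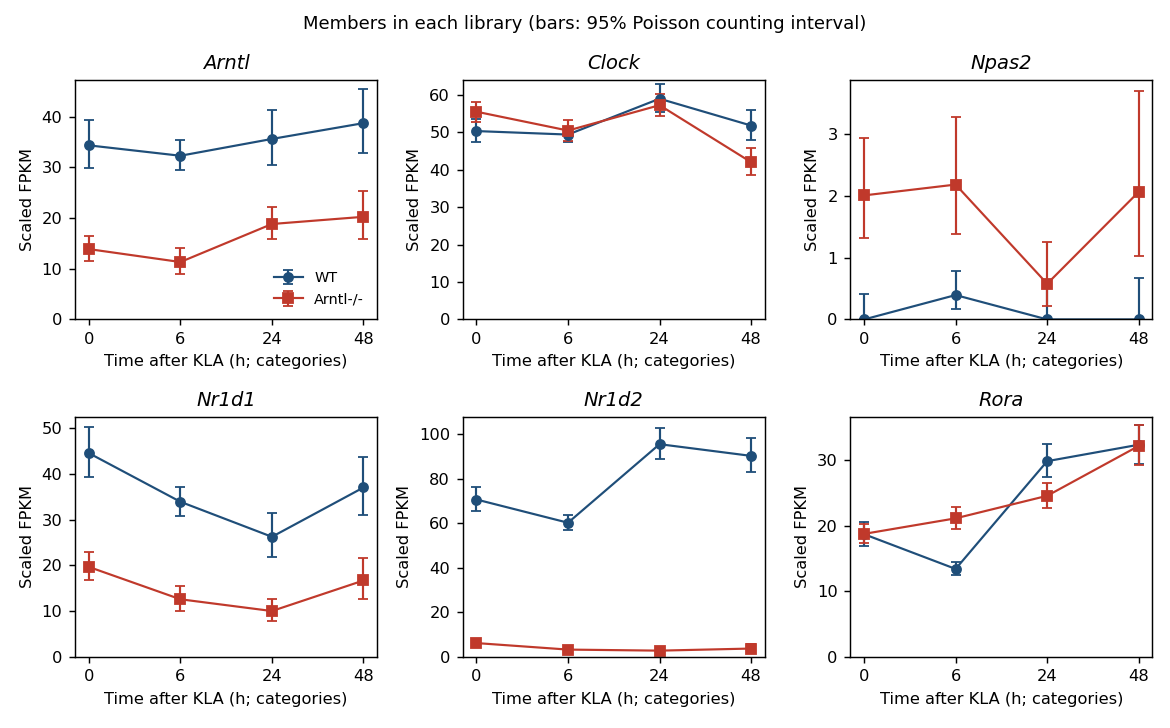
Scaled FPKM (y axis) of each gene at 0, 6, 24 and 48 h after KLA (x axis, evenly spaced) in WT (blue circles) and *Arntl*-/- (red squares) macrophages, 1 library per point, with 95% Poisson counting intervals as bars. The red points lie below all blue points for *Arntl*, *Nr1d1* and *Nr1d2* and above them for *Npas2*, and mix with them for *Clock* and *Rora*.

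The calls at 1.5-fold were then set against the other genes. *Arntl* is the deleted gene, so its lower level is part of the design rather than a result. Among the lower genes, the counts below therefore inform on *Nr1d1* and *Nr1d2*. *Arntl*, *Nr1d1* and *Nr1d2*, 3 of the 5 genes analysed, were at least 1.5-fold lower in *Arntl*-/- macrophages at 0 h, as were 1.58% of the genes analysed. They were also 3 of 5 at 6 h (1.78% of all), at 24 h (2.2%) and at 48 h (4.91%). Of the genes analysed, 0.123%, or 12 genes, were at least 1.5-fold lower at all 4 times, and these 3 were among them. Their 4 *Arntl*-/- libraries lay wholly below the 4 WT libraries, as did those of 0.556% of the genes analysed (0.370% as deposited and 0.267% with upper-quartile scaling). These genes were taken by their WT values, which favors genes that are high in WT. *Arntl*, *Nr1d1* and *Nr1d2* passed by their WT libraries, where the scaled FPKM times length reached 112, 123 and 442, while it reached at most 58.4, 54.1 and 28.5 in *Arntl*-/- libraries. If as many genes had been taken by their *Arntl*-/- maximum, none of the 3 would have been included. With as many genes taken by the mean over the 8 libraries, these 3 were included, and 1.39, 1.55, 1.93 and 4.44% of genes were lower at the 4 times. In the 16320 genes with more than 3 reads in at least 1 library, the shares were far larger, with 9.03, 13.0, 9.75 and 12.2% lower and 13.6, 9.65, 13.3 and 15.2% higher. In that set 58 genes (0.355%) were lower at all 4 times, and 0.686% had *Arntl*-/- libraries wholly below WT. With the 6 h libraries left out, these 3 genes were again wholly below WT (3.45% of the genes analysed), and *Npas2*, which is outside the genes analysed, was again wholly above (3.6% of the genes analysed, a set that does not hold it). In the other direction, *Rora* at 6 h was the 1 call among the 5 genes (1.88% of the genes analysed), and at 0, 24 and 48 h none was higher (2.18, 2.61 and 4.27% of the genes analysed). The shares also moved with the scaling. As deposited, 1.01% were lower and 3.34% higher at 0 h. The same shares at 6 h were 3.82% lower and 0.566% higher, and 24 h gave 1.76% lower and 3.47% higher. Upper-quartile scaling gave 0.885% lower and 3.90% higher at 0 h, and 2.80% lower and 0.998% higher at 6 h. Later it gave 1.76% lower and 3.45% higher (24 h) and 3.50% lower and 6.21% higher (48 h). A correction for expression level gave 0.947% lower and 1.62% higher at 6 h. Under each of these settings 3 of the 5 genes were at least 1.5-fold lower at each time. The median log2 ratio of the genes analysed was between -0.024 and 0.014 at the 4 times.

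**Figure D2:**
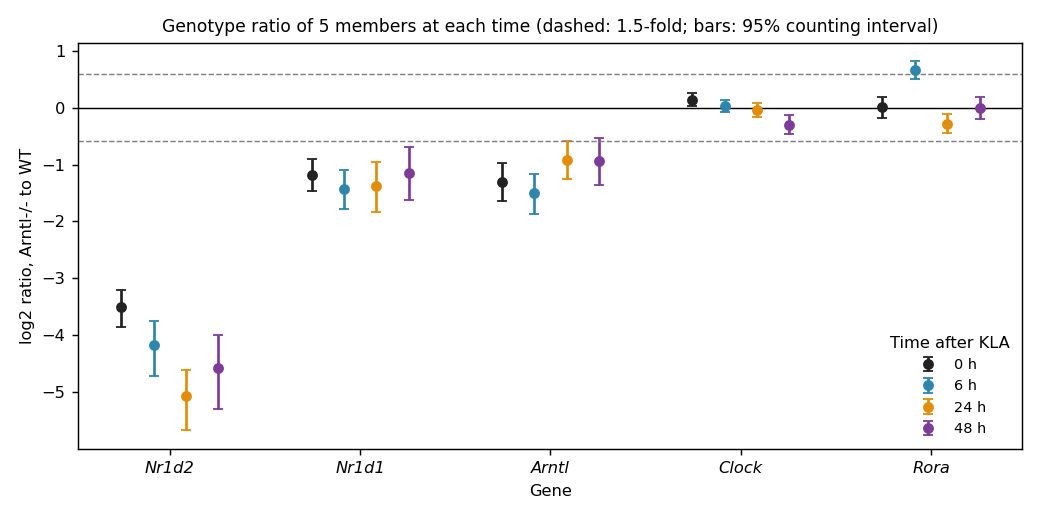
Log2 ratio of *Arntl*-/- to WT scaled FPKM (y axis) for 5 genes (x axis) at 0, 6, 24 and 48 h (colors), with 95% counting intervals; dashed lines mark 1.5-fold. *Nr1d2* lies between -5.06 and -3.50, *Nr1d1* and *Arntl* between -1.503 and -0.92, and *Clock* and *Rora* lie around 0 apart from *Rora* at 6 h.

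**Figure D3:**
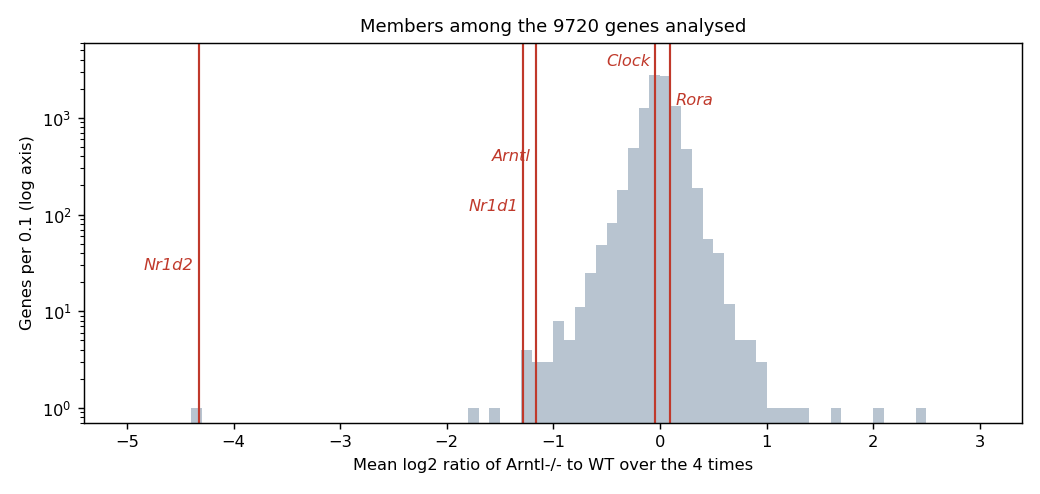
Histogram of the log2 ratio of *Arntl*-/- to WT, averaged over the times (x axis), for all genes analysed, in bins of 0.1 with a log count axis (y axis); red lines mark the 5 genes. *Nr1d2* at -4.33 stands at the left end, *Nr1d1* (-1.28) and *Arntl* (-1.16) in the sparse left tail, and *Clock* (-0.043) and *Rora* (0.092) in the center.

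The order of the 6 genes by level differed between the genotypes. In WT macrophages *Nr1d2* had the highest median level over the 4 libraries (80.4), followed by *Clock* (51.0), *Nr1d1* (35.4), *Arntl* (35.0), *Rora* (24.2) and *Npas2* (0). *Nr1d1* and *Arntl* were not separable, with each higher in 2 of 4 libraries. In *Arntl*-/- macrophages the order was *Clock* (52.9), *Rora* (22.8), *Arntl* (16.3), *Nr1d1* (14.6), *Nr1d2* (3.46) and *Npas2* (2.03), and again *Arntl* and *Nr1d1* were not separable. *Nr1d2* therefore was above *Clock* in WT macrophages and below *Nr1d1* with *Arntl* deleted, and *Rora* moved above *Arntl* although its own level was similar. The place of *Arntl* in the *Arntl*-/- order rests on a level per full exon length.

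The balance between repressor and activator mRNA shifted accordingly. The summed level of *Nr1d1* and *Nr1d2* was 115.1, 94.0, 121.6 and 127.2 in WT macrophages and 25.8, 15.8, 12.8 and 20.4 in *Arntl*-/- macrophages. *Nr1d2* made up 61.3 to 78.4% of this sum in WT macrophages and 18.2 to 23.9% in *Arntl*-/- macrophages, so that the leading RevErb mRNA was *Nr1d2* in the former and *Nr1d1* in the latter. The sum was 6.16, 7.03, 4.08 and 3.94 times the level of *Rora* in WT macrophages. With *Arntl* deleted it was 1.38, 0.749, 0.520 and 0.634 times that level, that is below *Rora* at 6, 24 and 48 h. *Clock* mRNA was 1.34 to 1.66 times that of *Arntl* in WT macrophages and 2.07 to 4.45 times in *Arntl*-/- macrophages. The latter range rests on the *Arntl* level per full exon length.

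**Figure D4:**
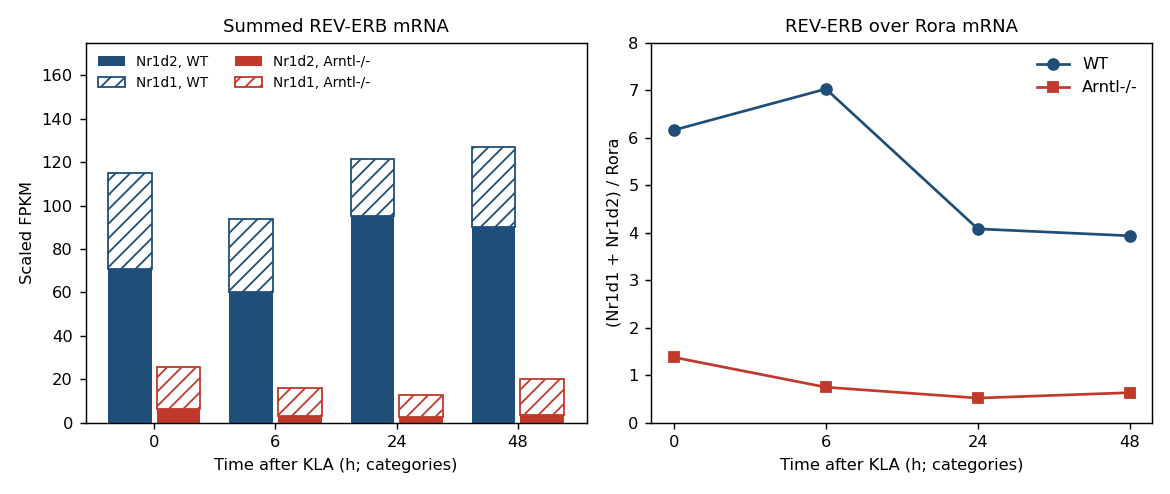
Left, scaled FPKM (y axis) of *Nr1d2* (filled) and *Nr1d1* (hatched) stacked for WT (blue) and *Arntl*-/- (red) libraries at each time after KLA (x axis, evenly spaced); right, their sum divided by that of *Rora*. The sum is 94.0 or more in every WT library and 25.8 or less in every *Arntl*-/- library, and the ratio to *Rora* is below 1 in *Arntl*-/- macrophages after 0 h.

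The time course after KLA was then described within each genotype, where the 3 later times share the 0 h library. In WT macrophages at 6 h none of the 5 genes had moved 1.5-fold (3.29% of the genes analysed were lower and 4.31% higher). At 24 h *Nr1d1* was lower by a log2 of -0.76 (7.91% of the genes analysed were at least 1.5-fold lower) and *Rora* was higher by 0.67 (7.94% were higher). At 48 h *Rora* remained higher by 0.79 (12.7% were higher), *Nr1d1* differed by -0.27, and 14.3% of the genes analysed were lower. *Arntl* stayed within 0.17 of its 0 h level in WT macrophages, and *Clock* within 0.23.

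With *Arntl* deleted, both RevErb genes were at least 1.5-fold lower at 6 and 24 h than at 0 h. At 6 h *Nr1d1* differed by a log2 of -0.64 and *Nr1d2* by -0.91 from 0 h (2.58% of the genes analysed were lower and 2.79% higher). At 24 h the differences were -0.97 and -1.13 (8.65% lower and 7.35% higher). At 48 h *Nr1d2* was still lower by -0.72, whereas *Nr1d1* differed by -0.24, and *Rora* was higher by 0.78 (16.7% of the genes analysed lower and 14.8% higher). *Clock* differed by -0.40 at 48 h, and the residual *Arntl* mRNA was 0.54 higher than at 0 h, both within 1.5-fold. A correction for expression level changed 3 of these calls, giving -0.55 for *Nr1d1* at 6 h and -0.58 for *Nr1d2* at 48 h, both short of 1.5-fold, and 0.69 for *Arntl* at 48 h, past it. *Npas2* had 6 reads at 24 h, a log2 difference of -1.64 from 0 h (95% counting interval -3.37 to -0.48).

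*Nr1d1* followed a similar course in both genotypes, with its lowest level at 24 h and a higher one at 48 h. *Nr1d2* did not, since in WT macrophages it was 1.35-fold higher at 24 h than at 0 h (95% counting interval 1.22 to 1.501), while in *Arntl*-/- macrophages it was at 0.448 of its 0 h level (0.290 to 0.678). The change from 0 h in *Arntl*-/- macrophages minus that in WT macrophages was -0.68, -1.56 and -1.07 for *Nr1d2* at 6, 24 and 48 h on the log2 scale. For *Nr1d1* it was -0.25, -0.21 and 0.031, with counting intervals that included 0. For *Rora* it was 0.65, -0.28 and -0.012. For *Clock* it was -0.11, -0.18 (95% counting interval -0.35 to -0.021) and -0.44 (-0.64 to -0.24).

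The genes whose profile over the 8 libraries was most like that of each gene were then listed, by the root mean square (RMS) difference of their centered log2 levels. The search covered the genes analysed and left out the 6 genes themselves. For *Arntl* these were *Col6a3* (0.23), *Postn* (0.24) and *Adam19* (0.31), and for *Nr1d1* they were *Postn* (0.30), *Slc35g1* (0.36) and *Col6a3* (0.36). *Col6a3* and *Postn* encode proteins of the extracellular matrix. *Postn* stood at 67.0 to 81.8 in WT and 32.3 to 36.9 in *Arntl*-/- libraries, and *Col6a3* at 9.26 to 12.2 and 4.74 to 7.55. Both thus separated the genotypes, but they were found by their likeness to *Arntl*. The summed level of 7 stromal markers, a list fixed for fibroblasts and osteoblasts, was 482, 591, 688 and 1361 in WT macrophages and 360, 393, 428 and 773 in *Arntl*-/- macrophages, lower with *Arntl* deleted at 4 of 4 times. None of the 7 markers separated the genotypes over all libraries. The part of such cells in the levels of *Arntl* and *Nr1d1* was not tested. None of the genes searched came near *Nr1d2*. Its closest profiles among them were *Cd5l* (1.598), *Nid1* (1.62) and *Postn* (1.66), against an RMS of 2.19 of *Nr1d2* around its own mean. *Clock* had *Sbno1* (0.053), *Chfr* (0.060) and *Rnf146* (0.062) beside it, and *Rora* had *Tpi1* (0.084), *Clec4d* (0.099) and *Mpeg1* (0.101).

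To place the 6 genes in the wider clock, 6 lists with 37 other genes were examined, of which 29 were among the genes analysed. The lists cover clock genes, genes for proteins that work with the 6 proteins, and macrophage genes listed as RevErb targets. The number of these 29 that lay wholly below WT was 0, next to 0.556% of the genes analysed, so that the count is near the background. *Per2*, *Cry1* and *Cx3cr1* were past 1.5-fold at all 4 times, and all were higher in *Arntl*-/- macrophages, compared with 0.0823% of the genes analysed and 0.558% of the 16320 genes with more than 3 reads in at least 1 library. *Per2* and *Cry1*, which encode inhibitors of Bmal1 and Clock, were on average 3.17-fold and 4.19-fold higher, and with *Bhlhe40* they made up the 3 genes whose *Arntl*-/- libraries were wholly above WT (0.638% of the genes analysed). *Cx3cr1*, which encodes a chemokine receptor and is repressed by RevErbs in macrophages, was on average 2.62-fold higher, with log2 ratios of 0.98, 1.496, 1.06 and 2.02, although its genotype ranges overlapped.

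*Nr1d1* and *Nr1d2* are themselves activated through E-boxes. Of 14 other E-box genes of the clock 10 were analysed, and 0 of them were at least 1.5-fold lower at any time, where 1.58, 1.78, 2.2 and 4.91% of the genes analysed were lower, so that 0 of 10 is near the background. At 0, 6, 24 and 48 h, 3, 3, 3 and 2 of them were higher (2.18, 1.88, 2.61 and 4.27% of the genes analysed), with median log2 ratios of 0.32, 0.29, 0.31 and 0.20 compared with -0.019, 0.014, -0.0050 and -0.024 for the genes analysed. *Usp2*, a deubiquitinase gene too low to be analysed, had levels of 12.9, 12.7, 15.4 and 1.4 in WT and 6.48, 5.51, 3.73 and 3.39 in *Arntl*-/- libraries. *Dbp* and *Tef*, PAR bZIP factors of the clock output, had mean log2 ratios of 0.044 and 0.23. Among targets of RORα and the RevErbs, a list that includes *Arntl*, *Clock* and *Npas2*, the others analysed were *Cry1* and *Nfil3*. The ratios of *Nfil3*, a repressor that acts on D-boxes, were 0.11, 0.75, 0.47 and 1.16.

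Genes for proteins that work with the 6 proteins were examined as well. All 6 genes of the RevErb corepressor complex, including *Ncor1* and *Hdac3*, stayed within 1.5-fold at every time, with ratios between -0.24 and 0.36, as most of the genes analysed did (1.58 to 4.91% were lower and 1.88 to 4.27% higher at a given time). Of 9 analysed genes for enzymes that modify clock proteins, none was past 1.5-fold at 0 or 6 h, 1 was higher at 24 h (*Btrc*, 0.69) and 2 were lower at 48 h (*Csnk1e*, -0.62, and *Sirt1*, -0.85), as were 2.61% and 4.91% of the genes analysed. *Arntl2*, which encodes the paralogue of Bmal1, was too low to be analysed. Of the macrophage genes listed as RevErb targets, *Mmp9* had ratios of -0.21, 0.49, -0.17 and 0.063 and *Ccl2* of -0.16, 0.45, -0.29 and -0.71, so that they did not share the direction of *Cx3cr1* at each time.

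**Figure D5:**
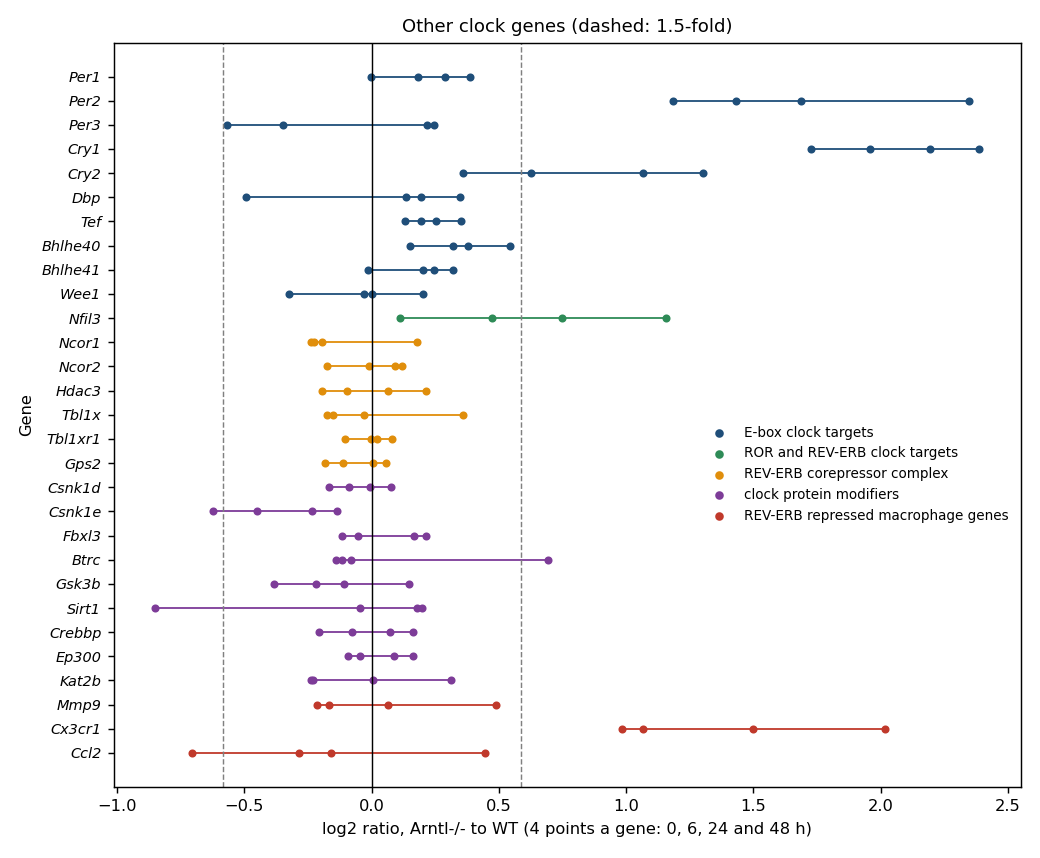
Log2 ratio of *Arntl*-/- to WT (x axis) of the 29 other listed genes analysed (y axis). Each gene has 4 points, for 0, 6, 24 and 48 h, joined by a line and colored by list. Dashed lines mark 1.5-fold. All points of *Per2*, *Cry1* and *Cx3cr1* lie right of the right dashed line, and those of the corepressor genes lie between the dashed lines.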

How the data were processed

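PolyA RNA-seq of BMDMs was analyzed in 8 libraries, 1 for each genotype and time. Groups were taken from the sample labels. The authors mapped paired-end reads to mm9 (STAR) and used HOMER to count RefSeq exons, ignoring strand and allowing 3 tags per position, with 1 transcript kept for each gene. Per the file header, the deposited values are FPKM scaled to 10000000 reads per library. The labels also mention a separate normalization of read counts, which the header does not show, and the values were taken as FPKM made by the authors. Versions are not given in the sources used here. Of the value columns, 4 belong to no labelled sample and were not used, and 1 fragment of a line was dropped. The ChIP-seq samples were not analysed here.

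Reads and depth were recovered from the FPKM, since 100% of low values, times length, were whole multiples of a single read (tolerance 0.1). No count test was run, since each condition has 1 library. Size factors from the median of ratios (0.918 to 1.13) put the libraries on a common scale. Log2 ratios used a pseudocount of 0.1, which understates changes of low genes, and were set against 1.5-fold. Intervals are exact 95% Poisson (levels) and conditional binomial (ratios) intervals. A WT value of 0 was replaced by a floor of 3 reads per library for the ratios of *Npas2*, which leaves the counting error of the *Arntl*-/- library aside. The genes analysed were as many as the study clustered, taken in order of the WT maximum of scaled FPKM times length in kb. Named were all 6 genes, the 3 nearest profiles of each of 5 genes, and listed genes past 1.5-fold in 1 direction at all times. Other genes of the lists (*Bhlhe40*, *Usp2*, *Dbp*, *Tef*, *Nfil3*, *Btrc*, *Csnk1e*, *Sirt1*, *Mmp9*, *Ccl2*, *Ncor1*, *Hdac3*, *Arntl2* and the markers *Mpo* and *Elane*) and *Thra* were picked after their values were seen. The genes and lists were chosen with earlier results of these data known. Of the listed genes, 1 is not reported here. Sequences were read from the mm9 genome, and GENCODE vM1 gave introns and UTRs. The steps were tested on simulated data. Alternatives were other scalings, pseudocounts of 1 and 0.01, a correction for expression level, 2-fold, other filters and leaving out each time. Software was scipy 1.17.1, numpy 2.4.6, statsmodels 0.14.6, pandas 2.3.3 and matplotlib 3.10.9 under Python 3.11.15.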

Additional observations from a re-analysis of the deposited data

Results flagged for a closer look

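For *Nr1d2* and *Rora* the change from 0 h after KLA ran in opposite directions in the 2 genotypes, with both counting intervals excluding 0. With 1 library per condition these differences were not tested. *Nr1d2* changed from 0 to 24 h by a log2 of 0.43 in WT macrophages and -1.13 in *Arntl*-/- macrophages, a difference of -1.56 (95% counting interval -2.17 to -0.96). From 0 to 48 h it changed by 0.35 and -0.72, a difference of -1.07 (-1.76 to -0.38). *Rora* changed from 0 to 6 h by -0.48 in WT macrophages and 0.17 in *Arntl*-/- macrophages, a difference of 0.65 (0.41 to 0.89). The lower end of the counting interval of that change in *Arntl*-/- macrophages was only 0.0071. As deposited, the changes of *Rora* were -0.32 and 0.11, a difference of 0.43, and the interval in *Arntl*-/- macrophages (-0.051 to 0.28) included 0. Upper-quartile scaling gave -0.30 and 0.17, a difference of 0.47. For *Nr1d2* the differences under these scalings were -1.597 and -1.62 at 24 h and -1.11 and -1.09 at 48 h.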

How the results depend on the processing

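Ratios are between libraries of the same time, and a fit of genotype and time over the 8 libraries was not run. The labels carry no replicate numbers. The mean log2 ratio of *Nr1d2* was -4.03 with a pseudocount of 1. The number of genes at least 1.5-fold higher in *Arntl*-/- cells at 6 h, which was 1 (*Rora*), was 0 in the values as deposited, with upper-quartile scaling and at 2-fold. At 2-fold, 2 genes instead of 3 were lower at 24 h and at 48 h, since *Arntl* fell short. Leaving out each time in turn gave mean log2 ratios of -1.25 to -1.05 for *Arntl*, -0.10 to 0.043 for *Clock*, -1.33 to -1.23 for *Nr1d1*, -4.60 to -4.08 for *Nr1d2* and -0.095 to 0.22 for *Rora*. For the 5 genes analysed, ratios at single times and changes from 0 h were recomputed under 5 alternatives, and 99 of the 100 recomputed ratios and 144 of the 150 recomputed changes moved by less than their counting error. For *Npas2*, ratios were recomputed under the other scalings alone, and its change from 0 to 24 h under none. Without the 6 h libraries, an alternative chosen after seeing the data, 3.45% of the genes analysed had *Arntl*-/- libraries wholly below WT and 3.6% wholly above. As deposited, the median log2 ratio of the genes analysed at 6 h was -0.12. Taking genes by their *Arntl*-/- maximum, ranking the genes in other gene sets and the other scalings of the opposite changes of *Nr1d2* and *Rora* were also chosen after seeing the data.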
